A study of Mus musculus with 18 samples.

Results

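The genes followed here in mouse embryonic fibroblasts act in extracellular matrix breakdown: the matrix metalloproteinases Mmp2, Mmp3, Mmp10, Mmp13 and Mmp14, their inhibitors Timp1, Timp2 and Timp3, and the related proteases Adamts1 and Adamts5. They were chosen by symbol, with earlier results of these data known. Each was read from its probe set with the highest mean over all 18 Affymetrix mouse genome arrays. All 10 of 10 passed the filter on low values and were among the 13728 genes tested, out of 18194 genes with a probe set of their own. The cells were wild type (WT), Atf4-/- or Cebpg-/-, taken from E13.5 embryos and passaged 2 to 3 times. After 24 h on the plate they were given 3 h of either normal medium or medium deprived of amino acids (AAD), a supplemented Krebs-Ringer buffer, and each of the 6 groups had 3 arrays. The buffer may differ from normal medium in more than its amino acids, so AAD here means the whole change of medium. The labels do not give the number of embryos behind a genotype or the origin of the replicates, so p-values measure the spread between these samples only.

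Matrix metalloproteinases are zinc-dependent enzymes that are made as inactive precursors and cut collagens, proteoglycans and other matrix proteins once the precursor peptide is removed. TIMPs bind the active site of these enzymes and block it, and TIMP3 also blocks several ADAMTS enzymes, which cut proteoglycans such as versican and aggrecan. Fibroblasts are a main source of both the proteases and the inhibitors in connective tissue. ATF4 is the transcription factor of the amino acid stress response, and the Cebpg product, C/EBPγ, is a leucine zipper factor known to form dimers with ATF4.

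Mmp13, Mmp3 and Mmp10 lie close together in a run of Mmp genes on chromosome 9, and they were the members with the largest differences between genotypes. AP-1, the dimer of FOS and JUN proteins, is a known regulator of these genes through a site next to the transcription start, so their promoters are shown. The sequences are the 250 bases before the RefSeq start site in build GRCm38.p6, on the plus strand, at chr9:7272264-7272513 for Mmp13, chr9:7445572-7445821 for Mmp3 and chr9:7502092-7502341 for Mmp10. Capitals mark matches on either strand to the AP-1 motif TGANTCA and, in Mmp10 alone of the 3, a match to TGATGNAA, the core of the element that C/EBP and ATF dimers bind.
Mmp13: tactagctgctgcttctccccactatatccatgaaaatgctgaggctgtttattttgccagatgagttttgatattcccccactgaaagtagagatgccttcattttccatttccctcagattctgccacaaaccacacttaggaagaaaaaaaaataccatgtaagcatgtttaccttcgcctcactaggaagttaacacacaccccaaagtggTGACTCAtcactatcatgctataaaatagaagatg
Mmp3: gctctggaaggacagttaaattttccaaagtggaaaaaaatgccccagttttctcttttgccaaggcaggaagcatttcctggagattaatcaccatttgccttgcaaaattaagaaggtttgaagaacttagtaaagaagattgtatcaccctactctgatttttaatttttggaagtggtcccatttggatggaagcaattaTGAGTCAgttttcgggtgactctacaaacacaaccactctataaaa
Mmp10: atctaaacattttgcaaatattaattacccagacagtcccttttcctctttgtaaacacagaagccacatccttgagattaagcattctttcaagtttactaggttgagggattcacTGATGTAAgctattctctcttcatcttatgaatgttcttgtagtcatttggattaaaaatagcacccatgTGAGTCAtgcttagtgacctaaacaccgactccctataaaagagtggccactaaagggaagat

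The AP-1 match began 35 bases before the start in Mmp13, 46 in Mmp3 and 63 in Mmp10. A RefSeq promoter was at hand for 8 of the 10 genes, and the AP-1 motif was found in 3 of these 8 and in 6.75% of all 32851 promoters at the same length. The C/EBP and ATF motif was found in 1 of the 8 and in 3.45% of all promoters, and the cyclic AMP element TGACGTCA in 0 of the 8 and in 1.55%. The motifs do not overlap each other in these sequences, and a match describes the letters only.

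The array medians lay between 5.21 and 5.27 on the log2 scale, and the mean correlation of an array with the others of its group lay between 0.996 and 0.998. Replicate 3 of Cebpg-/- stood apart for several members in either medium, and what rests on it is given with and without it further on. Atf4 was lower in Atf4-/- than in WT cells in normal medium by -5.59 ± 0.09 (log2 difference ± SE, n = 3 arrays per group, limma adjusted p = 1.53e-15). The brightest Cebpg probe set was not lower in Cebpg-/- cells in normal medium (0.05 ± 0.11, adjusted p = 0.805) and was lower in AAD medium (-0.74 ± 0.11, adjusted p = 0.000133). Whether it lies in the deleted part is not known here, so it gave no check of that label. All 10 of 10 fibroblast markers were above the filter level of 4.65 in every group, Col1a1 and Pdgfra among them. Of the endothelial markers 5 of 6 were below it in every group.

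Mmp13 and Mmp3 were far higher in Cebpg-/- than in WT cells, Mmp10 and Mmp13 were higher in Atf4-/- cells, and none of the 3 was called as changed by AAD in the fit without pairing. Adamts1 and Adamts5 rose more than 2-fold under AAD in WT and in Cebpg-/- cells, and Adamts1 did not rise in Atf4-/- cells. Of the inhibitors, Timp1 fell under AAD in WT cells in the fit without pairing, and Timp3 was lower in Cebpg-/- than in WT cells. With arrays paired by replicate number, Timp1, Timp2 and Timp3 fell in WT cells, and Timp1 and Timp3 in Cebpg-/- cells.

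**Figure D1:**
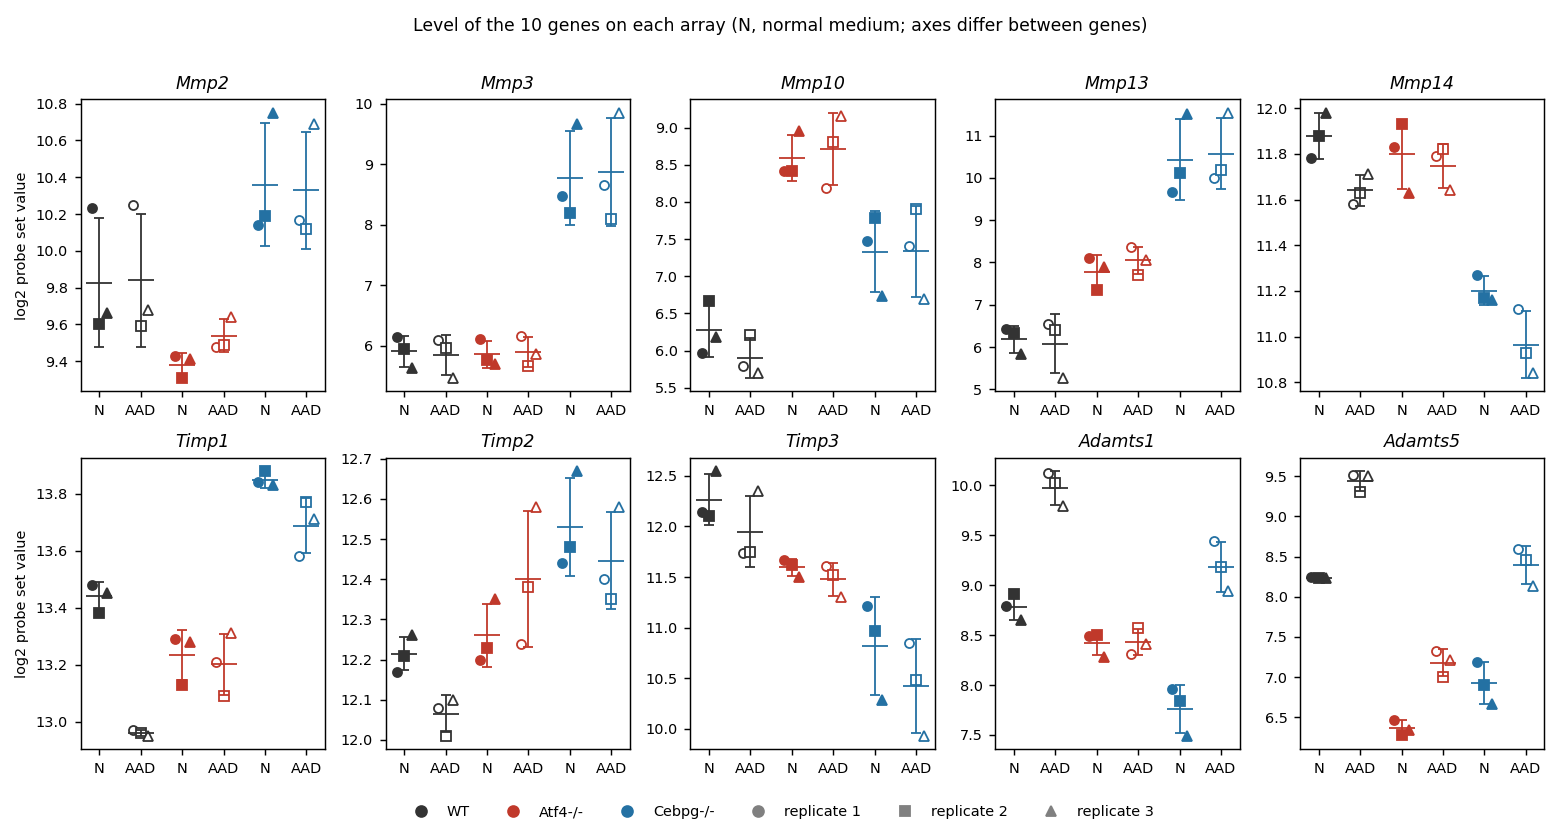
Log2 probe set value of each of the 10 genes on all 18 arrays, by genotype (colour), medium (N, normal, filled; AAD, open) and replicate number (symbol), with the group mean and SD (n = 3). Mmp3 and Mmp13 stand highest in Cebpg-/- cells in either medium, and Adamts1 and Adamts5 stand higher in AAD than in normal medium in WT and Cebpg-/- cells.

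The collagenase gene Mmp13, whose product cuts fibrillar collagen, had the widest range of all members. Its log2 values in normal medium were 6.42, 6.32 and 5.83 in WT, 8.10, 7.34 and 7.89 in Atf4-/- and 9.67, 10.11 and 11.51 in Cebpg-/- cells. The 3 genotypes did not overlap, with WT lowest and Cebpg-/- highest. Of all genes 58.7% did not overlap between Atf4-/- and WT, 42.9% between Cebpg-/- and WT and 59.3% between the knockouts. The Mmp13 difference from WT was 4.24 ± 0.47 in Cebpg-/- cells (18.9-fold, adjusted p = 1.46e-05) and 1.59 ± 0.47 in Atf4-/- cells (3.01-fold, adjusted p = 0.00892). In AAD medium the values were 6.55, 6.41 and 5.27 in WT, 8.37, 7.71 and 8.06 in Atf4-/- and 9.99, 10.19 and 11.54 in Cebpg-/- cells. The order was the same, at 4.50 ± 0.47 and 1.97 ± 0.47 from WT (adjusted p = 5.82e-06 and 0.00192). The knockouts differed from each other as well, Atf4-/- lying at -2.65 ± 0.47 from Cebpg-/- in normal and -2.53 ± 0.47 in AAD medium (adjusted p = 0.000188 and 0.000293).

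Mmp3, or stromelysin 1, which cuts many matrix proteins and activates other metalloproteinases, differed in Cebpg-/- cells. Its values in normal medium were 6.15, 5.95 and 5.64 in WT, 6.12, 5.77 and 5.70 in Atf4-/- and 8.47, 8.19 and 9.66 in Cebpg-/- cells. WT and Atf4-/- arrays overlapped, and all Cebpg-/- arrays lay above them (Cebpg-/- and WT did not overlap for 42.9% of all genes). Cebpg-/- cells differed from WT by 2.86 ± 0.38 (7.26-fold, adjusted p = 7.5e-05) and in AAD medium by 3.02 ± 0.38 (8.13-fold, adjusted p = 3.55e-05). For Atf4-/- against WT the difference was -0.05 in normal medium, with a 95% interval from -0.87 to 0.77 (adjusted p = 0.929).

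Mmp10, or stromelysin 2, a close relative of Mmp3, had another order. In normal medium its values were 5.97, 6.66 and 6.18 in WT, 8.42, 8.42 and 8.95 in Atf4-/- and 7.47, 7.79 and 6.73 in Cebpg-/- cells. WT was again lowest without overlap (58.7% of all genes against Atf4-/- and 42.9% against Cebpg-/-), but Atf4-/- was highest. Atf4-/- cells differed from WT by 2.32 ± 0.32 (5.01-fold, adjusted p = 1.68e-05) and in AAD medium by 2.81 ± 0.32 (7.02-fold, adjusted p = 2.16e-06). In Cebpg-/- cells the difference was 1.06 ± 0.32 (adjusted p = 0.0265) in normal and 1.44 ± 0.32 (adjusted p = 0.00349) in AAD medium. The call in normal medium was lost without WT normal replicate 1 (0.91), WT normal replicate 3 (1.01), Cebpg-/- normal replicate 1 (0.99) or Cebpg-/- normal replicate 2 (0.83). Atf4-/- lay above Cebpg-/- by 1.27 ± 0.32 in normal and 1.38 ± 0.32 in AAD medium (adjusted p = 0.00397 and 0.0022).

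The macrophage markers, taken as a sum, moved in a like order to Mmp13 in normal medium. Of the 11 tested, 4 were called higher than WT in Atf4-/- cells in that medium (51.5% of all genes called in either direction). In Cebpg-/- cells 9 were called higher, where 12.3% of all genes were. Their summed level (log2 of the summed linear values of 12 markers) ranged over 12.19 to 12.24 in WT, 12.88 to 13.27 in Atf4-/- and 13.32 to 13.73 in Cebpg-/- cells in normal medium, and 10 of 12 were above the filter level in WT and in Atf4-/- cells and 11 in Cebpg-/- cells, with Itgam below it in WT and Atf4-/- and Cd163 below it in all. In AAD medium the sums were lower, at 11.43 to 11.49, 12.14 to 12.67 and 12.40 to 12.85, and those of the knockouts overlapped. The chondrocyte markers summed to 8.83 to 9.84 in WT, 8.67 to 9.02 in Atf4-/- and 9.64 to 10.57 in Cebpg-/- cells in normal medium, with Matn1 below the filter level in all groups, Col10a1, Matn3 and Comp also below it in Atf4-/- and 7 of 8 above it in WT and Cebpg-/- cells. Fibroblast markers summed to 15.91 to 15.97, 15.45 to 15.53 and 15.47 to 15.61 in the same order of genotypes. The part of these cells in the differences between genotypes was not tested, and in such bulk samples a change in the number of cells of a type and in the RNA per cell cannot be told apart.

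Mmp2, the gelatinase that fibroblasts make steadily, was not called in any comparison with WT. Its values in normal medium were 10.23, 9.60 and 9.66 in WT, 9.43, 9.31 and 9.41 in Atf4-/- and 10.14, 10.19 and 10.75 in Cebpg-/- cells. The Atf4-/- arrays all lay below WT (-0.45 ± 0.21, adjusted p = 0.0829, or 0.048 with the compared groups alone in the fit). Between these groups 58.7% of all genes did not overlap. The Cebpg-/- arrays overlapped WT through WT replicate 1. Cebpg-/- differed from WT by 0.53 ± 0.21 (adjusted p = 0.0749) in normal and 0.49 ± 0.21 (adjusted p = 0.0873) in AAD medium, and without WT replicate 1 of that medium these became 0.73 (adjusted p = 0.0217) and 0.70 (adjusted p = 0.0212). The chondrocyte markers of WT summed to 9.84 and 9.94 on the normal and AAD arrays of replicate 1 and to 8.83 to 8.93 on the arrays of replicates 2 and 3, and their part in the Mmp2 values was not tested. Atf4-/- was lower than Cebpg-/- by -0.98 ± 0.21 in normal and -0.79 ± 0.21 in AAD medium (adjusted p = 0.0009 and 0.00461).

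Mmp14, the membrane-type enzyme that activates the Mmp2 precursor together with TIMP2, was lower in Cebpg-/- cells. It stood at 11.78, 11.88 and 11.98 in WT, 11.83, 11.93 and 11.63 in Atf4-/- and 11.27, 11.17 and 11.16 in Cebpg-/- cells in normal medium. Only the Cebpg-/- arrays lay apart (from WT, 42.9% of all genes did not overlap). They differed from WT by -0.68 ± 0.09 in normal and -0.67 ± 0.09 in AAD medium (1.60-fold, adjusted p = 5.72e-05 and 4.29e-05). Atf4-/- differed from WT in normal medium by -0.08 ± 0.09 (adjusted p = 0.485), and the mean of the 3 Mmp14 probe sets gave -0.25 (adjusted p = 0.0392). Under AAD Mmp14 went from these values to 11.58, 11.63 and 11.71 in WT and to 11.12, 10.93 and 10.84 in Cebpg-/- cells. These shifts of -0.24 ± 0.09 in each genotype missed the threshold (adjusted p = 0.0552 and 0.0676) but passed it with the replicate block described below (adjusted p = 0.00298 and 0.00396). They also passed without WT normal replicate 1 (-0.29, adjusted p = 0.0432) and without Cebpg-/- AAD replicate 1 (-0.32, adjusted p = 0.023).

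Timp1, the soluble inhibitor whose gene growth factors and cytokines induce, fell under AAD in WT cells. Its WT values were 13.48, 13.38 and 13.45 in normal and 12.97, 12.96 and 12.95 in AAD medium, with no overlap (42.4% of all genes). The change was -0.48 ± 0.07 (1.39-fold, adjusted p = 3.72e-05). On the Atf4-/- arrays Timp1 stood at 13.29, 13.13 and 13.28 in normal and 13.21, 13.09 and 13.31 in AAD medium, a change of -0.03 with a 95% interval from -0.17 to 0.11. The response was higher in Atf4-/- than in WT cells by 0.45 ± 0.09 (adjusted p = 0.00404). In Cebpg-/- cells the values were 13.84, 13.88 and 13.83 in normal and 13.58, 13.77 and 13.71 in AAD medium, a change of -0.16 ± 0.07 that missed the threshold (adjusted p = 0.0926, or 0.0254 with the replicate block). That response was not shown to differ from WT (0.32 ± 0.09, adjusted p = 0.277).

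Between genotypes Timp1 was highest in Cebpg-/- cells, above WT by 0.41 ± 0.07 in normal and 0.73 ± 0.07 in AAD medium (adjusted p = 0.000289 and 1.51e-06). It was lower in Atf4-/- than in WT cells in normal medium (-0.21 ± 0.07, adjusted p = 0.0144) and higher in AAD medium (0.24 ± 0.07, adjusted p = 0.00494). The first of these calls was lost without WT normal replicate 1 (-0.18) or Atf4-/- normal replicate 2 (-0.15).

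Timp2, which binds both MMP14 and the MMP2 precursor, differed little. Its 18 values ran from 12.01 to 12.67. It was higher in Cebpg-/- than in WT cells by 0.32 ± 0.09 in normal and 0.38 ± 0.09 in AAD medium (adjusted p = 0.0138 and 0.0034) and higher in Atf4-/- than in WT cells in AAD medium by 0.34 ± 0.09 (adjusted p = 0.00343). The call in normal medium was lost without Cebpg-/- normal replicate 3 (0.25) and with the mean of all Timp2 probe sets (0.23). Timp2 had 6 probe sets, of which 5 were above the filter level, and their differences of Cebpg-/- from WT in normal medium ranged from 0.04 to 0.42. Atf4-/- lay below Cebpg-/- in normal medium (-0.27 ± 0.09, adjusted p = 0.0152), a call lost without Atf4-/- normal replicate 1 (-0.24) or Cebpg-/- normal replicate 3 (-0.20) and with the mean of all probe sets (-0.15).

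Timp3, the inhibitor that stays bound to the matrix, was lower in Cebpg-/- cells. Its values in normal medium were 12.14, 12.10 and 12.55 in WT, 11.67, 11.62 and 11.50 in Atf4-/- and 11.21, 10.97 and 10.28 in Cebpg-/- cells. The order was the reverse of that of Mmp13, again without overlap (shares of all genes as given for Mmp13). Cebpg-/- cells differed from WT by -1.44 ± 0.24 in normal (2.72-fold, adjusted p = 0.000487) and -1.53 ± 0.24 in AAD medium (2.88-fold, adjusted p = 0.000247). Atf4-/- cells differed by -0.67 ± 0.24 in normal medium (adjusted p = 0.0304), a call lost without WT normal replicate 3 (-0.52), Atf4-/- normal replicate 1 (-0.70), replicate 2 (-0.68) or replicate 3 (-0.62), and by -0.47 ± 0.24 in AAD medium (adjusted p = 0.115, and -0.66 with an adjusted p of 0.0244 for the mean of all Timp3 probe sets). The 4 Timp3 probe sets gave differences of -1.44 to -1.78 for Cebpg-/- in normal medium. Atf4-/- lay above Cebpg-/- by 0.78 ± 0.24 in normal (adjusted p = 0.0146) and 1.05 ± 0.24 in AAD medium (adjusted p = 0.00191), and without Cebpg-/- normal replicate 3 the first was 0.50 and was not called. The smooth muscle markers, 6 of 6 above the filter level, moved as a sum in a like order to Timp3 in normal medium. Their summed level there lay at 15.36 to 15.46 in WT, 15.18 to 15.26 in Atf4-/- and 14.92 to 15.16 in Cebpg-/- cells. In that medium 2 of the 6 were called lower than WT in Atf4-/- cells (51.5% of all genes called in either direction). In Cebpg-/- cells 5 were called lower, where 11.1% of all genes were. In AAD medium the sums of WT (15.23 to 15.33) and Atf4-/- cells (15.19 to 15.26) overlapped. The part of these markers in the differences was not tested.

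Adamts1, a secreted protease that cuts versican and aggrecan and also binds VEGF, rose under AAD in WT and in Cebpg-/- cells. Its values in normal and AAD medium were 8.79, 8.91 and 8.65 against 10.12, 10.02 and 9.79 in WT cells. In Cebpg-/- cells they were 7.96, 7.84 and 7.49 against 9.44, 9.18 and 8.94. In Atf4-/- cells they were 8.49, 8.50 and 8.28 against 8.31, 8.57 and 8.41. The media did not overlap in WT (42.4% of all genes) and Cebpg-/- cells (38.3%) and overlapped in Atf4-/- cells. The rise was 1.19 ± 0.14 in WT (2.28-fold, adjusted p = 6.81e-06) and 1.43 ± 0.14 in Cebpg-/- cells (2.69-fold, adjusted p = 1.57e-06), and in Atf4-/- cells the change was 0.01 with a 95% interval from -0.28 to 0.30. The response in Atf4-/- cells was lower than in WT by -1.18 ± 0.19 (adjusted p = 0.000702) and lower than in Cebpg-/- cells by -1.42 ± 0.19 (adjusted p = 0.000256).

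In normal medium Adamts1 was lower in Cebpg-/- than in WT cells by -1.02 ± 0.14 (2.03-fold, adjusted p = 7.02e-05), so that after its rise it still lay -0.79 ± 0.14 below WT in AAD medium (adjusted p = 0.000492). Against WT, Atf4-/- cells had lower Adamts1 by -0.36 ± 0.14 in normal medium (adjusted p = 0.0364) and by -1.54 ± 0.14 in AAD medium (2.91-fold, adjusted p = 1.33e-07). The call in normal medium was lost without WT normal replicate 1 (-0.36), WT normal replicate 2 (-0.30), Atf4-/- normal replicate 1 (-0.39) or Atf4-/- normal replicate 3 (-0.29).

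Adamts5, the main aggrecan-cutting protease of mouse cartilage, rose in all 3 genotypes. Its values in normal and AAD medium were 8.24, 8.23 and 8.23 against 9.52, 9.30 and 9.50 in WT cells. Those of Atf4-/- cells were 6.47, 6.28 and 6.34 against 7.33, 7.0 and 7.21. In Cebpg-/- cells they were 7.19, 6.90 and 6.67 against 8.59, 8.46 and 8.14. The media did not overlap in any genotype (42.4% of all genes in WT, 21.1% in Atf4-/- and 38.3% in Cebpg-/- cells). The rise was 1.21 ± 0.13 in WT (2.31-fold, adjusted p = 3.16e-06), 0.81 ± 0.13 in Atf4-/- (1.76-fold, adjusted p = 0.00148) and 1.47 ± 0.13 in Cebpg-/- cells (2.78-fold, adjusted p = 6.46e-07).

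The Adamts5 response of Atf4-/- cells was lower than that of Cebpg-/- cells by -0.66 ± 0.18 (adjusted p = 0.0478), a call that did not hold without 1 array for 9 of the 12 arrays, at -0.54 to -0.70. It held without Atf4-/- AAD replicate 1, Cebpg-/- normal replicate 1 or Cebpg-/- AAD replicate 3. Against WT the difference was -0.40 ± 0.18 (adjusted p = 0.187, or 0.00707 with the replicate block, and 0.023 with the mean of all Adamts5 probe sets). Of the 4 Adamts5 probe sets 3 were above the filter level, and their rises were 0.88 to 1.23 in WT, 0.34 to 0.81 in Atf4-/- and 1.02 to 1.47 in Cebpg-/- cells. The levels of Adamts5 were lower in the knockouts in either medium. In normal medium they lay -1.87 ± 0.13 (3.64-fold, adjusted p = 1.11e-08) and -1.31 ± 0.13 (2.48-fold, adjusted p = 5.53e-06) from WT in Atf4-/- and Cebpg-/- cells. In AAD medium the differences were -2.26 ± 0.13 and -1.05 ± 0.13 (adjusted p = 1.58e-09 and 2.78e-05).

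**Figure D2:**
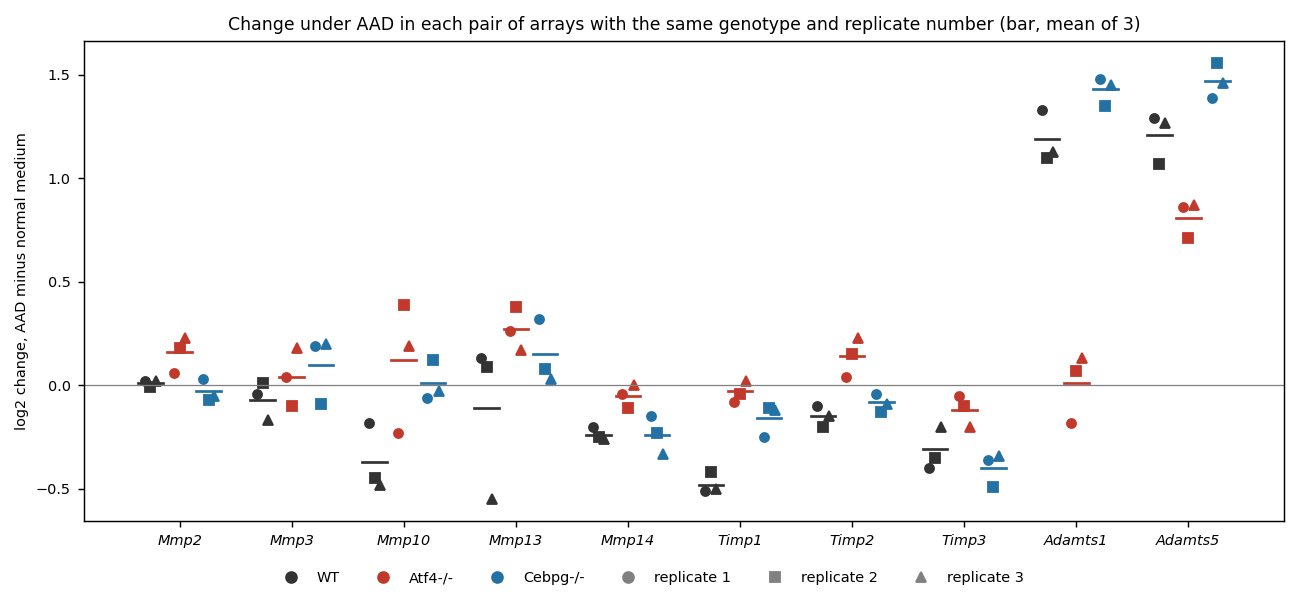
Log2 change under AAD (AAD minus normal medium) for each pair of arrays with the same genotype and replicate number, with the mean of the 3 pairs as a bar. Adamts1 and Adamts5 stand above 1 in all WT and Cebpg-/- pairs, the Adamts1 pairs of Atf4-/- lie between -0.18 and 0.13, and Timp1 lies between -0.51 and -0.42 in WT.

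Under AAD in WT cells 2 of the 10 rose and 1 fell, where 28.2% of all genes tested were called (14.3% as higher and 13.9% as lower), and the median change of the 10 was -0.13 against -0.01 over all genes. In Atf4-/- cells 1 of 10 was called (4.70% of all genes), and in Cebpg-/- cells 2 of 10 (21.9%). The response differed from that of WT for 2 of 10 in Atf4-/- (12.8%) and for 0 of 10 in Cebpg-/- cells (0.226%), and between the knockouts for 2 of 10 (5.30%). The count of 0 is from limma at the adjusted threshold, and 1 of the 10, Timp1, had an unadjusted p under 0.05.

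The arrays of the same genotype and replicate number deviated together in the 2 media, so the changes were also fitted with the replicate number within a genotype as a block. With the replicate block 7 of 10 members changed in WT cells (39.2% of all genes) and 5 of 10 in Cebpg-/- cells (34.0%), all of the added ones as falls. Timp3 fell in each of the 3 pairs, by 0.40, 0.35 and 0.20 in WT and by 0.36, 0.49 and 0.34 in Cebpg-/- cells, which the block called (-0.31 ± 0.06, adjusted p = 0.00109, and -0.40 ± 0.06, adjusted p = 0.000342) and the fit without it did not (adjusted p = 0.397 and 0.28). Mmp10 (-0.37 ± 0.10, adjusted p = 0.0159) and Timp2 (-0.15 ± 0.05, adjusted p = 0.0354) fell in WT under the block as well. In Atf4-/- cells 1 of 10 was called with the block (11.1%), again Adamts5. The differences of the Atf4-/- response from WT then numbered 5 of 10 (23.8%). To Timp1 and Adamts1 this added Mmp10 (0.49 ± 0.15, adjusted p = 0.0352), Timp2 (0.29 ± 0.07, adjusted p = 0.014) and Adamts5 (-0.40 ± 0.08, adjusted p = 0.00707). Between the knockouts, where 13.3% of all genes were called with the block, it added Timp3 (0.28 ± 0.08, adjusted p = 0.0406) to Adamts1 and Adamts5.

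In normal medium 6 of 10 differed between Atf4-/- and WT (51.5% of all genes tested) and 9 of 10 between Cebpg-/- and WT (23.3%). The size of the difference had a median of 1.04 over the 10 in Cebpg-/- cells against 0.13 over all genes, and of 0.40 against 0.23 in Atf4-/- cells. The members were chosen with earlier results of these data known, so these counts and sizes only describe them. In AAD medium 6 of 10 differed in Atf4-/- (54.3%) and 9 of 10 in Cebpg-/- cells (29.5%). Of the Cebpg-/- calls 5 were higher (Mmp3, Mmp10, Mmp13, Timp1 and Timp2) and 4 lower (Mmp14, Timp3, Adamts1 and Adamts5), in either medium. Over all genes 12.3% were called higher and 11.1% lower in normal medium, and 16.1% and 13.4% in AAD medium. The knockouts differed from each other for 10 of 10 members in normal (49.6%) and 9 of 10 in AAD medium (49.1%), all but Timp2. The comparisons with WT share the WT arrays.

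**Figure D3:**
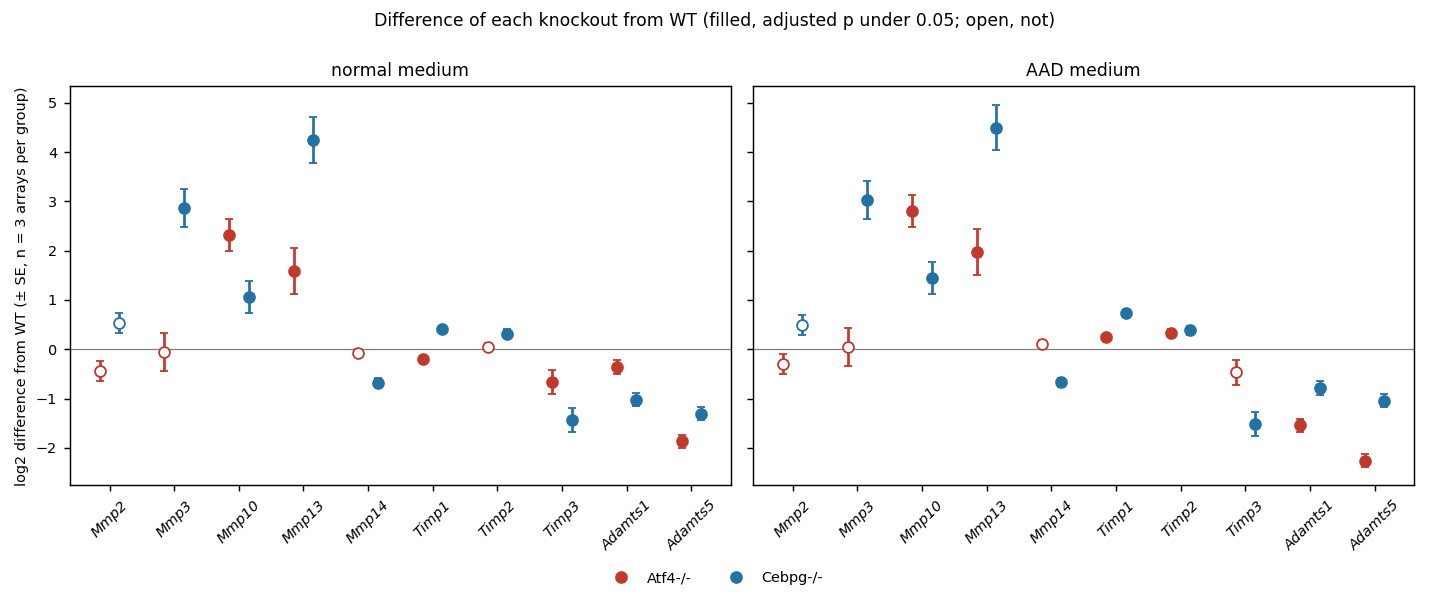
Log2 difference of Atf4-/- and Cebpg-/- from WT (± SE, n = 3 arrays per group) in normal and AAD medium, filled where the adjusted p was under 0.05. Mmp13 lies 4.24 and 4.50 above WT in Cebpg-/- cells, Mmp10 lies highest in Atf4-/- cells, and Adamts5 lies lowest in Atf4-/- cells.

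The spread within the Cebpg-/- groups was wide for several members. Replicate 3 lay apart from the mean of replicates 1 and 2 by 1.62 for Mmp13, 1.33 for Mmp3, -0.91 for Mmp10, -0.82 for Timp3 and 0.58 for Mmp2 in normal medium. In AAD medium the same differences were 1.45, 1.47, -0.97, -0.73 and 0.55, so the deviation was carried by both arrays of that number. Timp1 and Mmp14 differed by -0.19 to 0.03 between replicate 3 and the others. The chondrocyte markers of Cebpg-/- summed to 9.64, 9.94 and 10.57 in normal medium and 9.97, 9.92 and 10.53 in AAD medium in replicates 1, 2 and 3, the macrophage markers to 13.32, 13.73 and 13.72 and to 12.40, 12.85 and 12.78, and their part in this deviation was not tested. Replicate 3 was also left out in both media, a choice made after seeing the data. Then 8 of 10 members still differed between Cebpg-/- and WT in normal medium, Timp2 being lost (0.25, adjusted p = 0.0538), and 9 of 10 in AAD medium. The share of all genes called in this refit is not given here, and with all arrays it was 23.3% and 29.5%. Without replicate 3 Mmp13 lay 3.70 and Mmp3 2.42 above WT in normal medium, Mmp10 1.36 above it and Timp3 at -1.17 from it. The Adamts1 and Adamts5 differences from WT were -0.89 and -1.19. The keratinocyte markers of Cebpg-/- summed to 10.21 on AAD replicate 2 and to 8.67 to 9.16 on the other 5 arrays, with Cdh1 and Trp63 below the filter level.

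**Figure D4:**
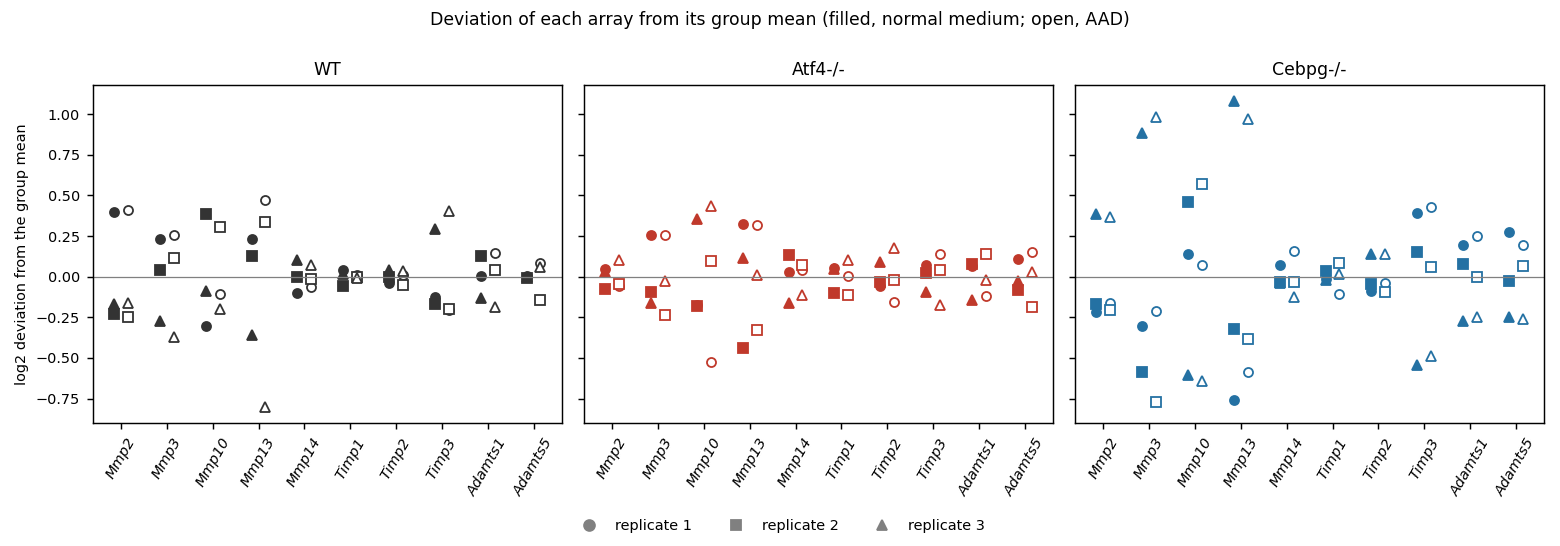
Log2 deviation of every array from the mean of its group for the 10 genes, in 3 panels by genotype, with the replicate number as symbol and filled (normal) or open (AAD) points. Replicate 3 of Cebpg-/- lies high for Mmp13, Mmp3 and Mmp2 and low for Mmp10 and Timp3 in both media.

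Other genes of matrix breakdown were counted from lists fixed by name. Beside the counts in normal medium stand the shares of all genes called in either direction, 51.5% for Atf4-/- and 23.3% for Cebpg-/- against WT. With higher and lower calls added, several of the Atf4-/- counts were near that share. The share of all genes called higher alone or lower alone is not given here for Atf4-/- cells. Whether a list leaned to higher or lower calls there was therefore not judged. Beside the counts under AAD stand 28.2% in WT, 4.70% in Atf4-/- and 21.9% in Cebpg-/- cells. Of the other matrix metalloproteinases 13 of 18 had a probe set and 8 were tested. Under AAD in WT cells 0 of the 8 were called by limma (1 at an unadjusted p under 0.05). In normal medium 2 were higher and 3 lower in Atf4-/- than in WT cells, and 1 was higher and 3 lower in Cebpg-/- cells. Mmp23, a metalloproteinase without the usual hemopexin part, was lower in each knockout (-1.71 ± 0.14 and -0.70 ± 0.14), and Mmp16, a membrane-type enzyme, was higher (0.51 ± 0.08 and 0.48 ± 0.08). Mmp12, the macrophage elastase gene that lies between Mmp13 and Mmp3 in the cluster, rose under AAD in Cebpg-/- cells by 1.15 ± 0.21 (adjusted p = 0.00075). Its mean went from 4.82 to 5.98 there and from 4.48 to 5.04 in WT cells, near the filter level of 4.65. The WT arrays of the 2 media did not overlap (42.4% of all genes), and 0 of the 8 genes were called for a Cebpg-/- response different from WT by limma. Mmp1a, Mmp1b, Mmp7, Mmp8 and Mmp20 of the same cluster stood below the filter level.

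Of the other ADAMTS genes 8 of 17 were tested. Adamts6 was the 1 called under AAD in WT cells (0.83 ± 0.06, adjusted p = 5.73e-08), and it rose in Cebpg-/- cells too (0.70 ± 0.06). In normal medium 4 of the 8 were lower and 0 higher in Atf4-/- cells (51.5% of all genes called in either direction). In Cebpg-/- cells 4 were lower and 0 higher, where 11.1% of all genes were called lower. Adamts12 (-1.04 ± 0.19 and -1.37 ± 0.19), Adamts9 (-0.81 ± 0.18 and -0.94 ± 0.18) and Adamts4 (-0.56 ± 0.18 and -0.83 ± 0.18) were lower in each. Versican (Vcan), a substrate of these enzymes, was lower in Cebpg-/- cells (-1.25 ± 0.18, adjusted p = 0.000136), and the 3 substrate genes tested gave 0 calls under AAD in each genotype by limma (0 at an unadjusted p under 0.05 as well).

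Of the other inhibitors and clearance receptors 9 of 10 were tested, and 2 were higher and 4 lower in Atf4-/- than in WT cells in normal medium, against 1 and 3 in Cebpg-/- cells (51.5% and 23.3% of all genes). Reck, a membrane-anchored inhibitor of metalloproteinases, was higher in Atf4-/- than in WT cells by 1.34 ± 0.07 in normal and 1.73 ± 0.07 in AAD medium (adjusted p = 8.6e-10 and 5.03e-11). Under AAD in WT cells 2 of the 9 fell, where 13.9% of all genes were called lower. They were Lrp1, an endocytic receptor that clears proteases (-0.24 ± 0.06), and Reck (-0.20 ± 0.07). In the plasminogen activation list 7 of 9 were tested, of which 2 fell under AAD in WT cells (13.9% of all genes). Serpinb2, an inhibitor of plasminogen activators, was higher in Atf4-/- by 2.46 ± 0.25 and in Cebpg-/- cells by 1.71 ± 0.25 in normal medium, and it fell in WT under AAD (-1.04 ± 0.25). The urokinase gene Plau was lower in Atf4-/- cells (-1.02 ± 0.27) and the tissue activator gene Plat in each knockout (-0.67 ± 0.24 and -1.35 ± 0.24).

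Of the 4 proprotein convertases, which remove the precursor peptide of MMP14 and of ADAMTS enzymes, 0 were called under AAD in each genotype by limma (1, 1 and 2 at an unadjusted p under 0.05 in WT, Atf4-/- and Cebpg-/- cells). In normal medium 3 were lower in Atf4-/- cells, and 2 were lower and 1 higher in Cebpg-/- cells. Furin was lower by -0.21 ± 0.05 and -0.55 ± 0.05 and Pcsk5 by -1.11 ± 0.17 and -1.53 ± 0.17, while Pcsk6 was higher in Cebpg-/- cells (0.75 ± 0.11). Of the 8 ADAM sheddases 1 was higher and 2 lower in Cebpg-/- than in WT cells in normal medium, Adam8 being the higher (1.39 ± 0.18). Adam19 was the 1 that fell under AAD in WT cells (-0.79 ± 0.07), where 13.9% of all genes were called lower.

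Of the 7 AP-1 subunit genes 5 rose under AAD in WT and 6 in Cebpg-/- cells, and 0 rose and 1 fell in Atf4-/- cells. Over all genes 14.3% were called higher under AAD in WT cells. In either direction 28.2% were called in WT, 21.9% in Cebpg-/- and only 4.70% in Atf4-/- cells. Fos rose by 2.43 ± 0.17 and Jun by 1.74 ± 0.12 in WT cells. The part of these subunits in the levels of Mmp3, Mmp10 and Mmp13 was not tested. In normal medium Fosl1 was higher (0.44 ± 0.12) and Jund lower (-0.34 ± 0.06) in Cebpg-/- than in WT cells, and Jun was higher (0.74 ± 0.12) and Fos (-0.61 ± 0.17) and Junb (-1.04 ± 0.15) lower in Atf4-/- cells.

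The genes whose log2 levels ran most like those of each member over the 18 arrays were named as a description, the 18 arrays being 3 of each of 6 groups. For Mmp13 they were Dcxr and Ano1 (Pearson r = 0.971 and 0.970), for Mmp3 Gchfr and Ripk4 (0.975 and 0.974), and for Mmp10 Hdgfl3 and Kif5c (0.958 and 0.948). For Mmp2 they were Synm and Cgnl1 (0.974 and 0.971) and for Mmp14 Sh3pxd2b and Akap12 (0.971 and 0.961). The inhibitors gave Tpgs2 and Tmem37 for Timp1 (0.958 and 0.955), Setd3 and Uchl1 for Timp2 (0.919 and 0.914), and Cnn1 and Thy1 for Timp3 (0.975 and 0.960). Adamts1 was followed by Ptbp2 and Tdrd3 (0.947 and 0.944) and Adamts5 by Ddr2 and Snai2 (0.968 and 0.967). Among the members themselves Mmp13 ran with Mmp3 (0.91) and against Timp3 (-0.96), and Mmp10 ran against Adamts5 (-0.77). For deviations from the group means the values were 0.88, -0.89 and 0.25, so Mmp10 did not run against Adamts5 within groups.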

How the data were processed

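The deposited table holds 1 log2 value per probe set and array, made by the authors with RMA per the submitters' processing notes (its version and settings: not given in the sources used here). Values ran from 2.15 to 14.56 and were used without further normalization. Of 45101 probe sets 34958 had 1 gene symbol, 932 had several and 9211 were not listed. The last 2 classes were not used, and symbols were updated by Entrez identifier (34754 matched in a GRCm38.p6 table). The brightest probe set of each gene was kept. A gene was tested where its highest group mean reached 4.65, the 40th percentile of the table. Group means (6) were fitted with limma 3.58.1, run in R 4.3.3, over 18 arrays, with 12 residual degrees of freedom and moderated variances. P-values were adjusted by Benjamini-Hochberg across the 13728 genes in each of 12 comparisons, and calls were made below an adjusted p of 0.05. The fit was tested on simulated data. Errors are standard errors from limma. The number of arrays and the spread between replicates limit the precision.

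The members and lists were chosen with earlier results of these data known. The text names all members, Atf4 and Cebpg, up to 4 called genes of each list with the largest change, and 2 like genes per member. Deviations from the group means of arrays with the same genotype and replicate number correlated at 0.30 to 0.69 in 9 of 9 pairs across media (other numbers, -0.56 to 0.09), while the same number in other genotypes gave -0.24 to 0.19. The replicate block within genotype was therefore used as a paired fit for responses.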

Additional observations from a re-analysis of the deposited data

Results flagged for a closer look

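The response to AAD, the log2 change from normal to AAD medium, differed between genotypes for 3 members by the test of the difference itself. For Adamts1 it was lower in Atf4-/- than in WT cells by -1.18 (adjusted p = 0.000702) and lower than in Cebpg-/- cells by -1.42 (adjusted p = 0.000256). For Timp1 the response of Atf4-/- cells was higher than that of WT by 0.45 (adjusted p = 0.00404), Timp1 falling in WT cells. For Adamts5 the response of Atf4-/- cells was lower than that of Cebpg-/- cells by -0.66 (adjusted p = 0.0478). That call was lost in 12 of its 21 alternatives, with an adjusted p of 0.000749 to 0.122 over them.

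Timp2 drew attention by the directions of its brightest probe set. That was lower in AAD medium in all 3 pairs of WT and of Cebpg-/- arrays and higher in all 3 pairs of Atf4-/- arrays. Its other probe sets above the filter level changed by -0.06 to -0.07 in WT and 0.13 to 0.23 in Atf4-/- cells. In Cebpg-/- cells they changed by -0.04 to 0.14, so the fall there was not shared by all of them. For the brightest probe set the Atf4-/- response differed by 0.29 from WT (adjusted p = 0.141, or 0.014 with the replicate block) and by 0.22 from Cebpg-/- (adjusted p = 0.372).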

How the results depend on the processing

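Alternatives changed the variance model, the filter, the normalization, the probe sets of a gene, the arrays in the fit and the replicate block, or left out 1 array. Of 1930 refitted member differences, 1872 stayed on their side of the threshold, 24 passed it newly, 34 no longer passed it, and no called difference changed sign. The count of members called moved by over 1.5 times in these cases, whose causes were not tested. With the replicate block it was 7 for AAD in WT (3 without it), 5 in Cebpg-/- (2) and 5 for the Atf4-/- response against WT (2). With trended, robust variances it was 4 in Cebpg-/-. For the response of Atf4-/- against Cebpg-/- (2) it was 1 with no filter, with quantile normalization and with the groups compared alone. The block by replicate number changed no call between genotypes. Leaving out 1 array gave 1 to 2 members for that response and 4 to 5 for Atf4-/- against WT in normal medium (6 with all arrays).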
